A study of Mus musculus with 5 samples.

Results

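The regional factors examined here were 8 mouse transcription factor genes that mark levels of the early brain: Six3 and Lhx2 of the forebrain and eye field, Otx2 of the forebrain and midbrain, En1, En2 and Pax2 of the midbrain and its border with the hindbrain, Gbx2 of the anterior hindbrain, and Egr2 (Krox20) of 2 bands of the hindbrain. They were taken by symbol from the gene rows, 8 of 23284, and all 8 were present in the count table of every sample. The samples were the neural tubes of 5 mouse embryos, freed by hand and with enzyme, whose polyA RNA was sequenced to ask which genes depend on the erythropoietin receptor. EpoR, written Epor in the gene rows, encodes that receptor. There were 2 EpoR-/- embryos (EpoR-null 1 and 2), 2 EpoR+/+ embryos (wild type 1 and 2) and 1 EpoR+/- embryo (the heterozygote), and the last 3 were the littermate controls. All came from crosses of EpoR+/- mice, and the labels name no treatment and no other allele. The deletion is in the germline, so every cell of an EpoR-/- embryo carries it. Their age is E8.5 by the labels and slightly later by the methods of the study. The axial level at which the tubes were cut is not given in the sources used here.

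In the early embryo, opposing signals along the long axis divide the neural plate into forebrain, midbrain, hindbrain and spinal cord. Otx2 is needed for forebrain and midbrain and Gbx2 for the anterior hindbrain, and each represses the other, so that their border sets the isthmus, the organizer where En1, En2 and Pax2 are active. Farther back, Hox genes give each segment its identity. Several of these factors are used again elsewhere: En1 and Pax2 in interneurons of the spinal cord, Pax2 also in the kidney rudiment and the ear vesicle, Lhx2 also in the limb bud, and Gbx2 also in the caudal neural plate.

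Reads counted on genes ranged from 19316126 to 41169218 per embryo, so that 3 reads of a gene were worth 0.0715 to 0.152 CPM. CPM express a gene's count relative to the size of its library, here scaled by TMM. Among the pan-neural progenitor genes, all 8 listed (Sox1, Sox2, Sox3, Hes5, Nes, Cdh2, Msi1 and Pax6) were tested. Their summed level was 1998 to 2250 CPM in the controls and 1946 and 1687 CPM in EpoR-null 1 and 2, both below every control. The targeted gene did not separate the groups by level. Epor reached 2.35 and 1.62 CPM in wild type 1 and 2 and 0.476 CPM in the heterozygote, against 0.354 and 0.669 CPM for EpoR-null 1 and 2, so the heterozygote lay between the EpoR-null embryos. Which exons the deletion removes is not stated in the labels. The heterozygous library stood apart in genes of other tissues: its 5 primitive erythroid genes summed to 43.5 CPM against 595 and 1078 CPM in the wild type embryos, its 4 endothelial genes to 9.68 CPM against 136 and 209 CPM, and its 6 paraxial mesoderm genes to 8.65 CPM against 26.6 and 29.7 CPM.

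Gbx2 was the only one of the 8 factors that was read in quantity. It took 65.9% to 93.4% of all reads on the 8 genes in an embryo. Six3, Otx2, En2 and Egr2 had at most 12 reads in every embryo, and 6 of the 8 factors were under 1 CPM in every control. The promoters of Gbx2 and En1, both on chromosome 1, are shown because these genes differ in what follows. Gbx2 was abundant and varied little, and En1 was far less abundant, though not the sparsest, and varied most. Each is 300 bases, from 250 before to 50 after a transcription start, from RefSeq on GRCm38.p6, printed 5′ to 3′ on the gene's own strand with every CpG dinucleotide (CG, which reads the same on both strands) in capitals.
Gbx2, chr1:89931127-89931426, minus strand: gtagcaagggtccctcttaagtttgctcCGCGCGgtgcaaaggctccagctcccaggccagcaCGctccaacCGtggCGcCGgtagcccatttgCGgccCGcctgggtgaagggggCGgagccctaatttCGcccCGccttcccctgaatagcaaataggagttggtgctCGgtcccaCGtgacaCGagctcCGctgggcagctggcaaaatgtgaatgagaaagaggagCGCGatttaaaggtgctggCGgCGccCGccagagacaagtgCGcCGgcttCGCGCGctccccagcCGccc
En1, chr1:120602237-120602536, plus strand: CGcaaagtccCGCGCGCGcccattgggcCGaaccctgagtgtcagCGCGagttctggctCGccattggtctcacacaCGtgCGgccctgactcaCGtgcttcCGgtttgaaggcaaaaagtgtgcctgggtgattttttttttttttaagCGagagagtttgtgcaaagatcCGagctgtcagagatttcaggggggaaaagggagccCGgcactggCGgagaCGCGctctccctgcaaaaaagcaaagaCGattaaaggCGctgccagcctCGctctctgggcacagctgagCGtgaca
The Gbx2 window held 27 CpG (0.861 of the number its base composition gives) and the En1 window 23 (0.948). Counting a window as CpG-rich when G and C make up over 50% of it and CpG reaches over 0.6 of that number, 33.3% of 32851 promoter windows were CpG-rich, as were 12 of the 17 windows of the 7 factors that had one. Windows of the same gene can overlap, and Six3 had no CpG-rich window. Gbx2 and En1 were alike in this feature, which 6 of the 7 factors had in at least 1 window, so it says nothing about their levels.

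The forebrain factors were near the limit of detection. Six3, a homeobox gene of the eye field and rostral forebrain on chromosome 17, had 0 and 4 reads in wild type 1 and 2, 2 in the heterozygote, and 3 and 5 in EpoR-null 1 and 2. Finding no read in wild type 1 allows a level of up to 0.124 CPM (3 counts), and this limit and the intervals given with counts cover counting error only. Both EpoR-null values, 0.152 and 0.176 CPM, were above the highest control, 0.0953 CPM, but this order rests on at most 5 reads per embryo. Lhx2, a LIM homeobox gene needed for the eye and cortex, on chromosome 2, had 11 and 23 reads in the wild type embryos, 9 in the heterozygote, and 35 and 14 in EpoR-null 1 and 2. In CPM these were 0.454, 0.548 and 0.389 in the controls and 1.77 and 0.493 in the EpoR-null embryos. EpoR-null 1 was thus 3.59-fold above EpoR-null 2, which fell within the range of the controls.

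Otx2 and En2 were as sparse as Six3. Otx2, on chromosome 14, had 8 and 1 reads in wild type 1 and 2, 7 in the heterozygote, and 3 and 1 in EpoR-null 1 and 2, or 0.331, 0.0238 and 0.303 CPM against 0.152 and 0.0352 CPM. The groups overlapped, and the wild type embryos were as far apart as any pair. En2, on chromosome 5, had no read in wild type 1 and EpoR-null 1, 1 read each in wild type 2 and the heterozygote, and 4 reads (0.141 CPM) in EpoR-null 2. Reads of Six3 and Otx2 also carry an annotation limit. In GENCODE M21 exons of Six3 overlap those of Six3os1 on the opposite strand by 106 bases, and exons of Otx2 those of Otx2os1 by 154 bases. Exons of Six3 also share 168 bases with Gm28528 (opposite strand), and those of Otx2 share 168 bases with Gm49154 (same strand). Neither of these genes has a row of its own in the counts. Whether the counting used strand is not given in the sources used here, and strand could not separate Otx2 from Gm49154.

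En1, a homeobox gene of the midbrain and isthmus that is also on in ventral interneurons of the spinal cord, differed more between the EpoR-null embryos than any other of the 8 factors. It had 21 and 12 reads in wild type 1 and 2, 19 in the heterozygote, 79 in EpoR-null 1 and 1 in EpoR-null 2. These were 0.868, 0.286 and 0.821 CPM in the controls, 3.99 CPM in EpoR-null 1 (exact 95% interval 3.16 to 4.97) and 0.0352 CPM in EpoR-null 2 (0.000892 to 0.196). EpoR-null 1 was above and EpoR-null 2 below all 3 controls, and neither interval reached the interval of the other. The interval of EpoR-null 2 did overlap that of wild type 2 (0.148 to 0.499), so their order lay within counting error.

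Pax2, a paired box gene of the isthmus, spinal interneurons, kidney and ear, on chromosome 19, followed the same order. It had 40 and 62 reads in wild type 1 and 2, 45 in the heterozygote, 110 in EpoR-null 1 and 35 in EpoR-null 2, which were 1.65, 1.48 and 1.95 CPM in the controls and 5.56 and 1.23 CPM in the EpoR-null embryos. EpoR-null 1 was 4.51-fold above EpoR-null 2, and they again lay on opposite sides of all controls. The kidney markers Osr1 and Wt1 were at or under 0.387 CPM and the ear marker Oc90 at or under 0.0238 CPM in every embryo. The summed level of the 4 intermediate mesoderm genes, nearly all of it Foxc2, was 0.303 to 6.36 CPM in the controls and 8.74 and 4.75 CPM in EpoR-null 1 and 2, and that of the 8 surface ectoderm and otic genes was 6.05 to 24.0 CPM in the controls and 14.7 and 31.2 CPM in EpoR-null 1 and 2. In bulk tissue, fewer cells of a type and less RNA per cell cannot be told apart.

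Gbx2 was even among the controls. It had 513 and 1082 reads in wild type 1 and 2, 553 in the heterozygote, 451 in EpoR-null 1 and 1021 in EpoR-null 2, which were 21.2, 25.8 and 23.9 CPM in the controls and 22.8 and 36.0 CPM in the EpoR-null embryos. EpoR-null 1 lay within the range of the controls and EpoR-null 2 above all 4 other embryos, whereas En1 and Pax2 were higher in EpoR-null 1. In GENCODE M21 its exons share 946 bases with D130058E05Rik on the opposite strand, a gene with no row of its own in the tables, so reads from both cannot be told apart without strand. Egr2, a zinc finger gene of alternating hindbrain segments, on chromosome 10, had 1 and 11 reads in wild type 1 and 2, 4 in the heterozygote, and 3 and 12 in EpoR-null 1 and 2. Its groups overlapped, and its highest level, in EpoR-null 2, was 0.423 CPM.

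**Figure D1:**
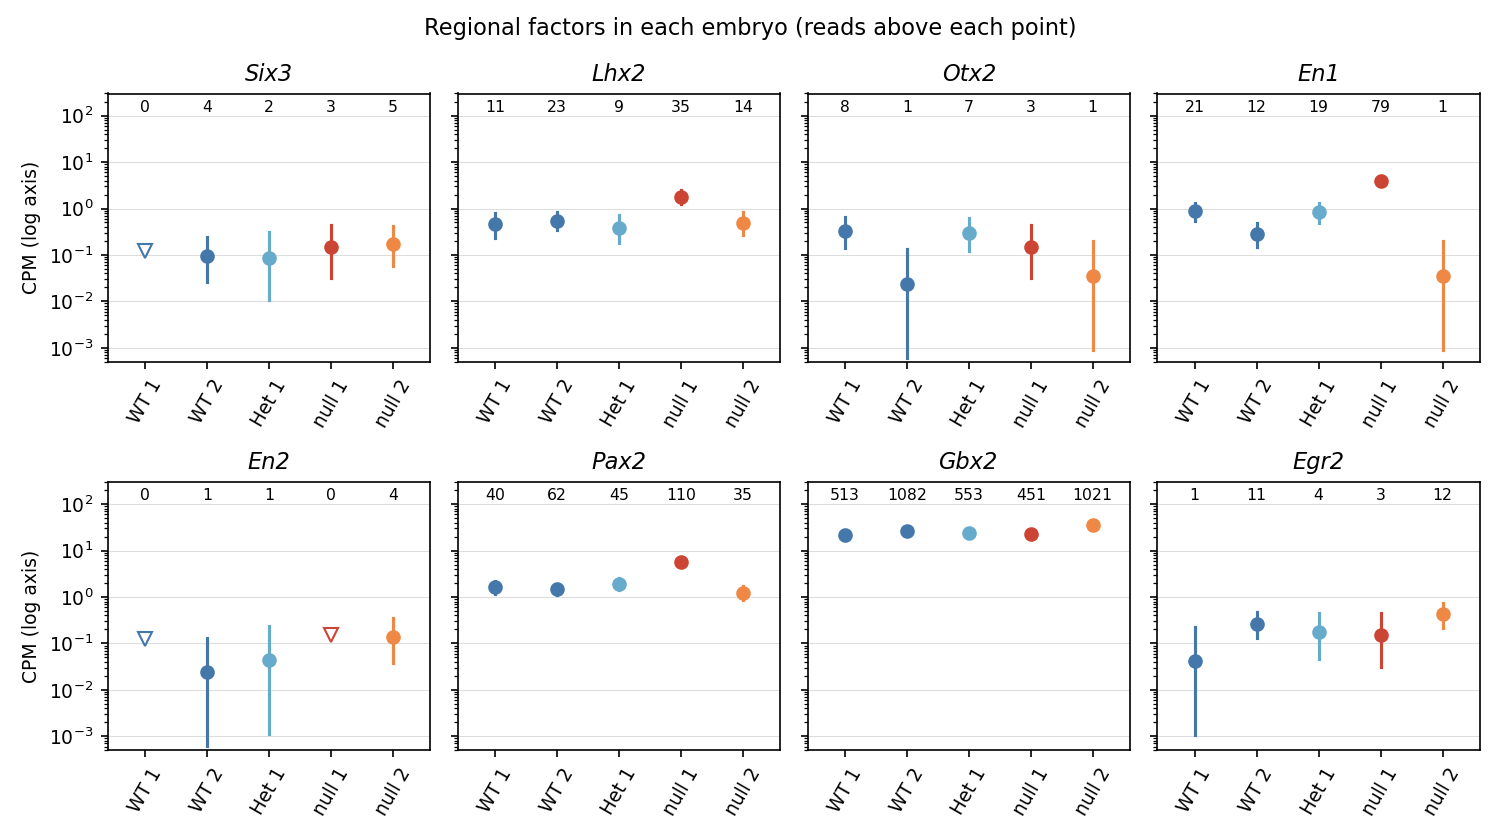
CPM (log axis) of each of the 8 regional factors in each embryo (WT, wild type; Het, heterozygote; null, EpoR-null), with exact 95% binomial intervals as bars and read counts along the top. Open triangles mark the level of 3 counts where no read was found; Gbx2 lies above 20 CPM throughout, and En1 runs from 0.0352 CPM in EpoR-null 2 to 3.99 CPM in EpoR-null 1.

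Per kilobase of the longest annotated transcript, the level in the controls was highest for Gbx2 (mean 11.1 CPM per kilobase, range 9.93 to 12.1, n = 3). Pax2 followed (0.388, range 0.339 to 0.446), then En1 (0.251, range 0.109 to 0.331), Lhx2 (0.163, range 0.137 to 0.193), Otx2 (0.0845, range 0.00919 to 0.128), Egr2 (0.0535, range 0.0139 to 0.0884), Six3 (0.0165, range 0 to 0.0259) and En2 (0.00632, range 0 to 0.0122). The ranges of Gbx2 and Pax2, of Pax2 and En1, and of Lhx2 and Otx2 did not overlap, though Pax2 and En1 were separated by little and Otx2 had at most 8 reads in a control. The other neighbours in this order overlapped.

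Ratios of reads within an embryo do not depend on library size. Otx2 had 1.56, 0.0924 and 1.27 reads per 100 Gbx2 reads in wild type 1, wild type 2 and the heterozygote, and 0.665 and 0.0979 in EpoR-null 1 and 2. The highest exact 95% limit in any embryo was 3.10 reads per 100. So Otx2 was scarce beside Gbx2 in all 5 libraries. Because Gbx2 is also used in the caudal neural plate, this ratio does not set midbrain against hindbrain alone. The ratios of En1 and of Pax2 to Gbx2 were computed after the values had been seen. En1 had 4.09, 1.11 and 3.44 reads per 100 Gbx2 reads in wild type 1, wild type 2 and the heterozygote, 17.5 in EpoR-null 1 (13.6 to 22.3) and 0.0979 in EpoR-null 2 (0.00248 to 0.547). Pax2 had 7.80, 5.73 and 8.14 in the same controls, 24.4 in EpoR-null 1 (19.6 to 30.1) and 3.43 in EpoR-null 2 (2.37 to 4.80). The split between the EpoR-null embryos was thus also there without any scaling of the libraries. Among the sparse pairs, Lhx2 outnumbered Egr2 in every embryo (11 to 1, 23 to 11 and 9 to 4 reads in wild type 1, wild type 2 and the heterozygote, 35 to 3 and 14 to 12 in EpoR-null 1 and 2). In EpoR-null 2 the exact 95% limits of that ratio, 50.1 to 276 reads per 100, included equal counts. Six3 had at most 5 reads and Egr2 at most 12 in any embryo, and both had 3 in EpoR-null 1.

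None of the 8 factors was called different between EpoR-null and control embryos. Of the 8, 2 passed the filter on low counts (CPM above 1 in at least 2 embryos), Pax2 and Gbx2, and 0 of these 2 were called by the exact test of edgeR at p under 0.001 and FDR under 0.05, where 4.77% of the 12703 genes tested were called. Neither reached an unadjusted p under 0.05 in this test, in the quasi-likelihood F-test of edgeR or in DESeq2. Pax2 had a log2 fold change of 0.997 (SE 0.68, 95% interval -0.34 to 2.33; edgeR exact test, p = 0.141, FDR 0.433). Gbx2 had a log2 fold change of 0.31 (SE 0.27, 95% interval -0.21 to 0.84; edgeR exact test, p = 0.238, FDR 0.552). These intervals leave room for a change of more than 2-fold in Pax2, so the tests do not show that the factors were alike. In 0 of the 2 tested factors did the EpoR-null and control embryos separate without overlap, against 43.3% of all genes tested. Since 2 embryos were set against 3, an exact two-sided rank-sum test of a single gene could not go below p = 0.2. The p-values here measure the spread between these embryos only.

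Each of these fold changes rested on 1 embryo. Without EpoR-null 1, the log2 fold change of Pax2 turned to -0.45 (SE 0.48, edgeR exact test FDR 0.585), and without EpoR-null 2 it was 1.72 (SE 0.42, edgeR exact test FDR 0.000587), which was then called. That of Gbx2 was 0.60 without EpoR-null 1 (SE 0.21, edgeR exact test FDR 0.0119), short of the threshold on p (0.00258), and -0.057 without EpoR-null 2. With the heterozygote left out, the values were 1.11 for Pax2 and 0.32 for Gbx2, close to those with all embryos. A lone EpoR-null embryo is taken in these fits to vary as the controls do.

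**Figure D2:**
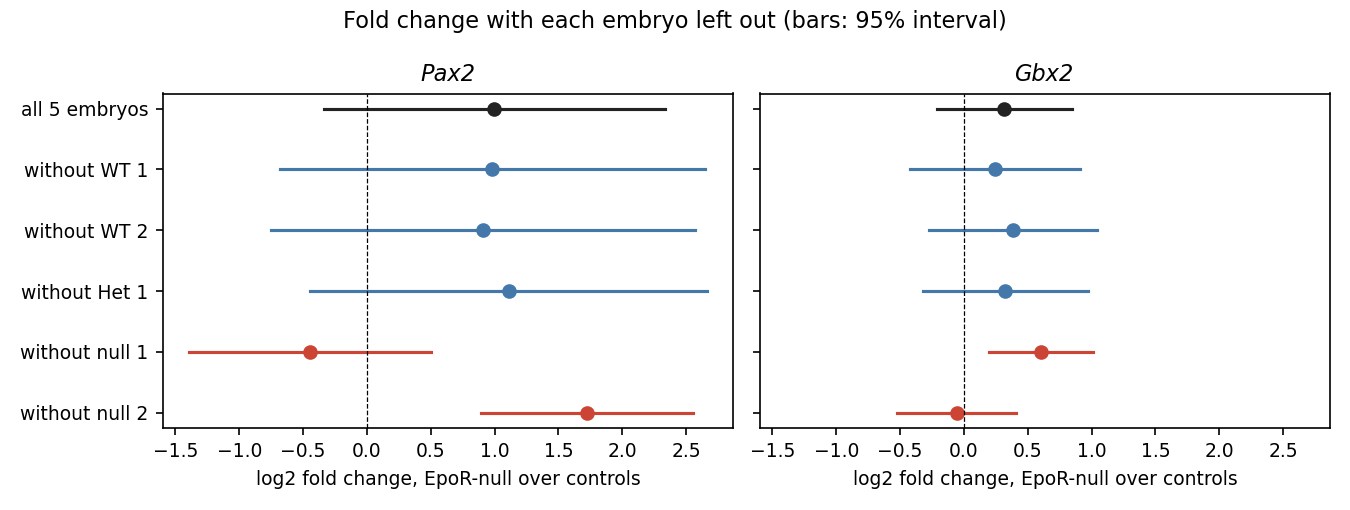
Log2 fold change of Pax2 and Gbx2 (EpoR-null over controls) with all 5 embryos and with each left out in turn; points are estimates and bars 95% intervals from the SE. Leaving out a control moves either gene little, while leaving out EpoR-null 1 takes Pax2 from 0.997 to -0.45 and leaving out EpoR-null 2 takes Gbx2 from 0.31 to -0.057.

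The 6 factors that failed the filter were fitted only in the run with no filter, and 0 of them were called there. Their log2 fold changes were 1.24 for Six3 (FDR 0.654), 1.21 for Lhx2 (FDR 0.453), -1.24 for Otx2 (FDR 0.957), 1.58 for En1 (FDR 0.775), 1.57 for En2 (FDR 0.923) and 0.77 for Egr2 (FDR 0.894), all by the edgeR exact test. For En1, the 79 reads in EpoR-null 1 and the 1 read in EpoR-null 2 were far apart beyond counting error, so that the spread lay between embryos of the same genotype.

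Listed neighbours of the 8 factors placed the libraries on the same axis. Of 12 other forebrain and eye field genes, 10 were under 1 CPM in every embryo, among them Rax, Six6, Emx2 and Otx1, which pattern the eye, cortex and midbrain. The 2 that were tested were Sp8 (37.0 to 49.7 CPM in the controls, 39.1 and 40.6 CPM in the EpoR-null embryos) and Lhx5, both also active outside the forebrain, and 0 were called. Of 9 midbrain and isthmus genes, 5 were under 1 CPM in every embryo, including Fgf8 and Fgf17, signals of the isthmus, and Pax5. The 4 tested were Fgf18, Wnt1, Pax8 and Lmx1b. Wnt1, which also runs along the dorsal midline of the spinal cord, was at 23.2 to 26.7 CPM in the controls and at 16.2 and 31.4 CPM in EpoR-null 1 and 2.

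Pax8 was the only gene called in these lists. It is a paired box gene of the isthmus, ear, kidney and thyroid and of spinal interneurons. It rose from 0.909, 0.881 and 0.605 CPM in wild type 1, wild type 2 and the heterozygote to 2.53 and 2.54 CPM in EpoR-null 1 and 2 (log2 fold change 1.65, SE 0.41, edgeR exact test FDR 0.00240). The groups did not overlap. The call was lost in the quasi-likelihood F-test, in DESeq2 and when any 1 of the 3 controls was left out.

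Farther back the lists were well read. Of 11 hindbrain genes, 10 were tested and 0 called. The most abundant were Hoxb3 (123 to 135 CPM in the controls, 139 and 114 CPM in EpoR-null 1 and 2) and Hoxb2 (58.5 ± 1.30 CPM in the controls, SD, n = 3, and 64.7 and 81.7 CPM), the homeobox genes of the middle and caudal hindbrain. Of 13 spinal cord and trunk genes, all 13 were tested and 0 called, led by Hoxb9 (256 to 295 CPM in the controls, 152 and 316 CPM in EpoR-null 1 and 2) and Hoxb8 (78.4 to 86.9 CPM, 103 and 79.4 CPM). The median log2 fold change was 0.28 over the 10 tested hindbrain genes and 0.10 over the 13 trunk genes, beside 0.056 over all genes tested. The 2 tested forebrain genes had log2 fold changes of opposite sign, 1.001 for Lhx5, which was high in EpoR-null 1 alone, and -0.11 for Sp8, and the 4 tested midbrain genes ran from -1.42 (Lmx1b, FDR 0.115) to 1.65 (Pax8), both by the edgeR exact test.

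**Figure D3:**
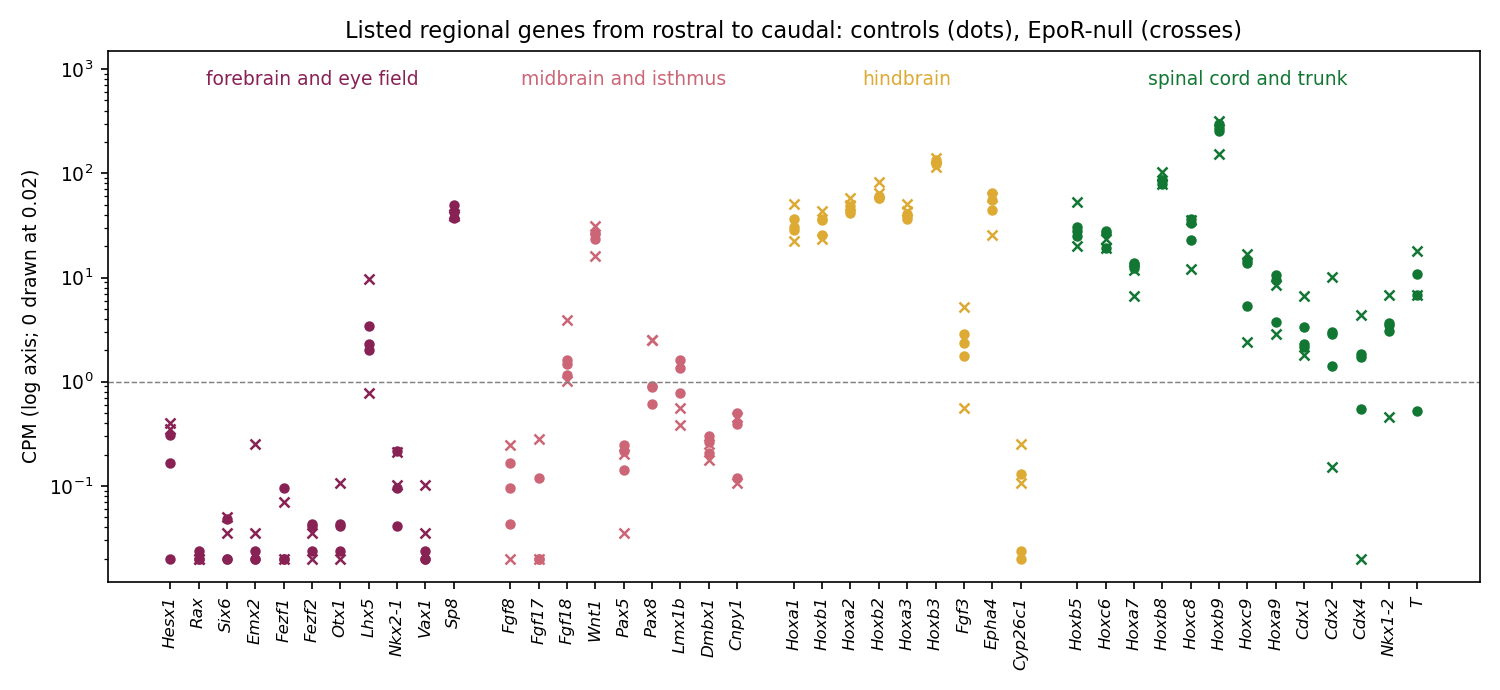
CPM (log axis, with 0 drawn at 0.02) of the listed regional genes in order from forebrain to trunk (a few are not drawn), with the 3 control embryos as dots and the 2 EpoR-null embryos as crosses; the dashed line is 1 CPM. The forebrain genes drawn, other than Sp8 and Lhx5, stay below the line in every embryo, and no trunk gene does.

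The EpoR-null embryos differed from each other along this axis. En1 and Pax2, 2 of the 8 factors (25%), lay above all controls in EpoR-null 1 and below them in EpoR-null 2, and no factor lay the other way round. Of all genes tested, 20.6% lay on opposite sides of all controls in either order. En1 was not among the genes tested, so these shares are over unlike sets. The count is no result about the factors. Of the 29 tested genes of the 4 regional lists, 4 went with En1 and Pax2 (Lhx5, Fgf18, Hoxb3 and Hoxb5) and 12 went the opposite way, together 55.2%. This count was made after the values had been seen. Lhx5, a LIM homeobox gene of interneurons and forebrain, was at 2.31, 2.02 and 3.42 CPM in wild type 1, wild type 2 and the heterozygote, 9.60 CPM in EpoR-null 1 and 0.775 CPM in EpoR-null 2. Lhx1, its close relative, picked after its values were seen, had 18, 21 and 36 reads in these controls, 136 in EpoR-null 1 and 1 in EpoR-null 2.

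The genes that went the opposite way included some of the tail end of the neural plate. Cdx2, a caudal homeobox gene, was at 3.02, 1.41 and 2.90 CPM in wild type 1, wild type 2 and the heterozygote, 0.152 CPM in EpoR-null 1 and 10.04 CPM in EpoR-null 2. Nkx1-2, a gene of the caudal lateral epiblast, was at 3.06, 3.48 and 3.63 CPM in the same controls, 0.455 CPM in EpoR-null 1 and 6.80 CPM in EpoR-null 2. Cdx4 had no read in EpoR-null 1 and reached 4.40 CPM in EpoR-null 2. Fgf3 of the hindbrain list lay the same way, at 0.556 CPM in EpoR-null 1 and 5.21 CPM in EpoR-null 2. EpoR-null 1, with most En1 and Pax2, thus had the lowest level of Cdx2, Cdx4, Nkx1-2 and Fgf3, and EpoR-null 2 had the highest. Not all of the trunk list followed. T was highest in EpoR-null 2 (17.8 CPM), but its 6.77 CPM in EpoR-null 1 lay within the controls (0.519 to 10.9 CPM). Hoxb5 (53.6 and 19.9 CPM in EpoR-null 1 and 2) and Hoxb8 (103 and 79.4 CPM) were higher in EpoR-null 1.

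**Figure D4:**
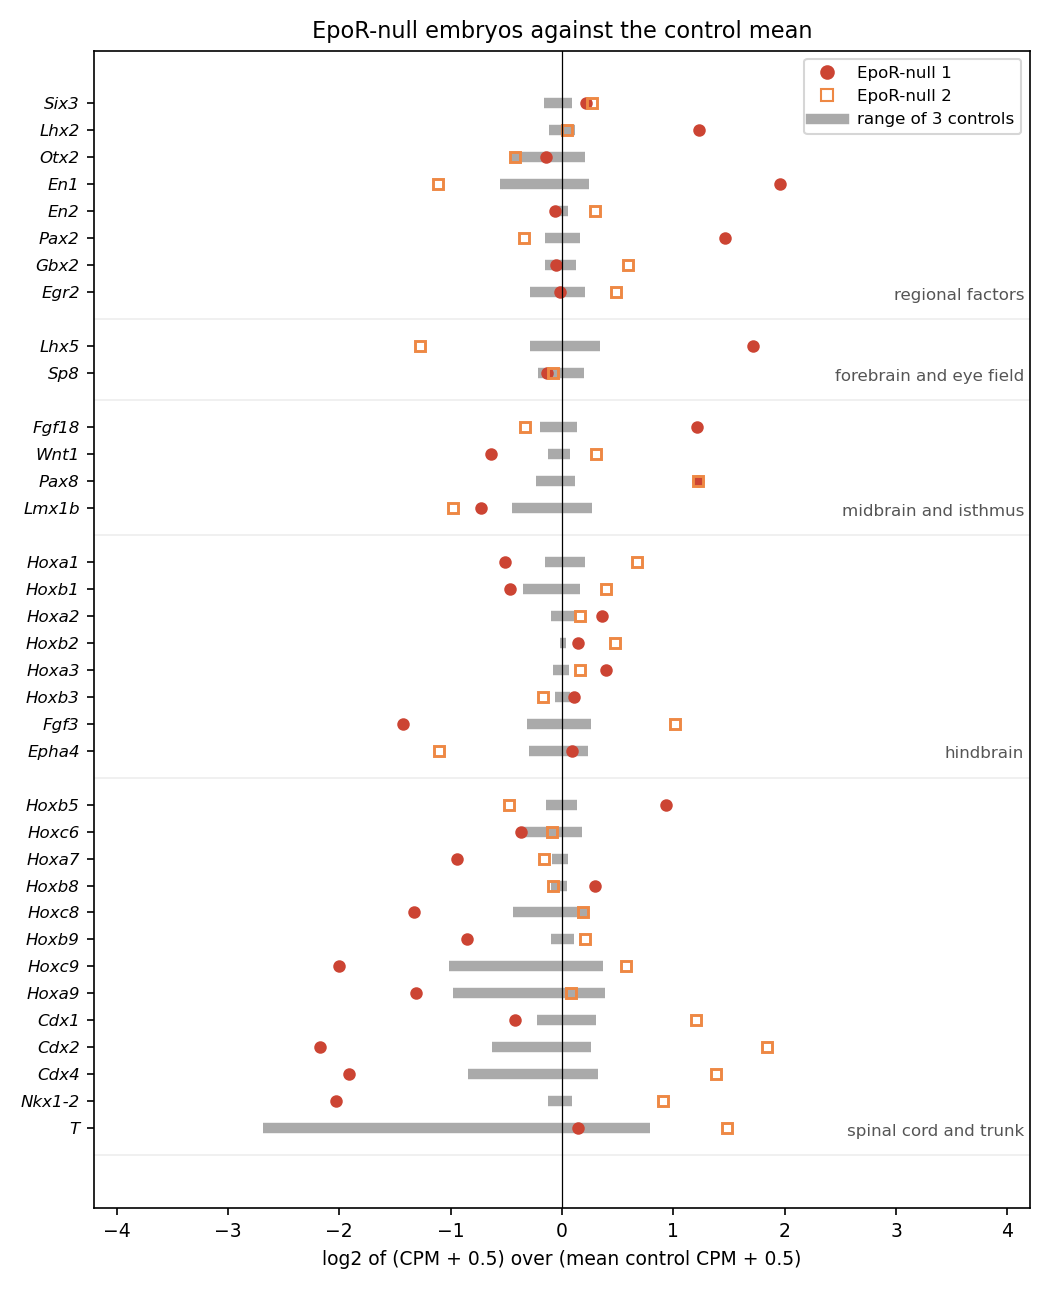
Log2 ratio of CPM (0.5 added) to the mean of the 3 controls for the 8 regional factors and the tested genes of the regional lists (a few are not drawn), with EpoR-null 1 as filled circles, EpoR-null 2 as open squares and the range of the controls as grey bars. For En1, Pax2 and Lhx5 the circle is to the right of the bar and the square to the left, and for Cdx1, Cdx2, Cdx4 and Nkx1-2 the order is reversed.

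Other tissue markers also differed between these embryos. EpoR-null 1 had the highest summed level of the 5 embryos in the paraxial mesoderm list (54.3 CPM, against 21.4 CPM in EpoR-null 2 and 8.65 to 29.7 CPM in the controls) and in the neural crest and head mesenchyme list (137 CPM, against 65.1 CPM and 25.8 to 91.1 CPM), in which 4 of 6 and 7 of 8 genes were tested and 0 called. Their part in the levels of En1 and Pax2 was not tested. A pair of neuronal genes, both chosen with their values known, is given beside these levels. Tubb3, neuronal tubulin, which was picked for its likeness to Pax2 and so has the same order by choice, was at 157, 133 and 186 CPM in wild type 1, wild type 2 and the heterozygote, 454 CPM in EpoR-null 1 and 104 CPM in EpoR-null 2, and Elavl3, an RNA-binding protein of neurons picked after its values were seen, was at 68.3, 45.0 and 86.1 CPM in these controls, 141 CPM in EpoR-null 1 and 28.3 CPM in EpoR-null 2. The part of neuron content in the levels of En1 and Pax2 was not tested.

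The genes with the most similar profile over the 5 embryos were found by the root mean square difference of centred log2 CPM (prior count 2). For Pax2 they were Adcyap1, a neuropeptide gene (difference 0.0602), and Tubb3 (0.0863), against a spread of 0.83 (SD) of Pax2 itself. For En1 the nearest was Sst, the somatostatin gene (0.195), which ran from 0.211 CPM in EpoR-null 2 to 15.1 CPM in EpoR-null 1, against an SD of 1.93. For Gbx2 they were Syngr2 (0.0141) and Thap11 (0.0234), with the level in EpoR-null 2 the highest in both (40.1 and 95.1 CPM). Lhx2 had Dusp9 (0.165) and Gsn (0.183) nearest. Those of Otx2 (Hoxd8 and Trpm3), Six3 (Grb14 and Etnk2), En2 (Socs1 and Epha1) and Egr2 (Rsph1 and Arc) were set by at most 12 reads of the factor per embryo. No test was made on these profiles, which rest on 5 embryos.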

How the data were processed

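PolyA RNA of 5 neural tubes was sequenced. The authors trimmed, aligned and counted reads per gene and deposited raw counts, without normalization, 1 table per embryo. The submitters' processing notes name Trimmomatic 0.32, TopHat2 2.1.0, HTSeq 0.6.1 and mm9, while the methods of the study name a human build. The annotation and strand setting are not given in the sources used here, and HTSeq leaves out reads on more than 1 gene (1.84% to 2.31% of the reads on genes, ambiguous or outside genes, with 8.11% to 11.0% outside genes).

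Groups came from the genotype labels. In R 4.3.3 with edgeR 4.0.16, genes with CPM above 1 in at least 2 embryos were tested (12703 of 23284), with TMM factors, tagwise dispersions, exactTest, EpoR-null (n = 2) against controls (n = 3) and Benjamini-Hochberg adjustment (FDR), as the study did apart from the filter. Genes with p under 0.001 and FDR under 0.05 were called. SEs came from the tagwise dispersions. CPM used TMM library sizes, and intervals of counts were exact binomial at 95%. As alternatives, edgeR's quasi-likelihood F-test without and with a replicate block, DESeq2 1.42.0, other scalings and filters, each embryo left out, and likelihood-ratio tests without and with offsets (loess span 0.5) for transcript length and GC content were run. Transcript lengths and overlaps came from GENCODE M21 (GRCm38) and promoters from RefSeq (GRCm38.p6), matched by symbol; the tables hold no coordinates, and this build differs from that of the counts.

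The factors, gene lists and tests were chosen with earlier results of these data known. Named genes were the 8 factors, Epor, every called gene of the 4 regional lists, the 2 most abundant genes of each list, and the 2 tested genes nearest in profile to each factor. Others were picked as examples after their values were seen. A few genes that these rules name are not reported here.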

Additional observations from a re-analysis of the deposited data

How the results depend on the processing

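No factor was called under any alternative except Pax2 without EpoR-null replicate 2, so the count with an embryo left out ran from 0 to 1. Over all genes, 606 were called, and 115 to 2296 with an embryo left out (fewest without wild type 1, most without EpoR-null 1). The quasi-likelihood F-test of edgeR called 0 (3052 at an unadjusted p under 0.05), with a replicate block 291, DESeq2 1041, and the likelihood-ratio test of edgeR 541 without and 161 with offsets for length and GC content. Regional list genes called numbered 1, with 0 in the quasi-likelihood F-test, in the same test with the replicate block and in DESeq2, and 0 to 8 with an embryo left out (0 without each control, 4 without EpoR-null 1, 8 without EpoR-null 2). With an embryo left out, the log2 fold change of Pax2 ran from -0.45 (reversed, without EpoR-null 1) to 1.72 and that of Gbx2 from -0.057 (reversed, without EpoR-null 2) to 0.60. With offsets, Gbx2 had a value of 0.032. Replicate numbers are shared by 2 pairs and mark no litter or day in the labels; across genes, the difference between the wild type embryos and that between the EpoR-null embryos of the same numbers had a correlation of 0.427. With 0.5 CPM added, the log2 ratio of Otx2 to Gbx2 moved from -10.08 to -5.67 in wild type 2 and from -10.00 to -6.00 in EpoR-null 2, since Otx2 had 1 read in each. Read depth limits Six3, Otx2, En2 and Egr2 in every embryo.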

Other observations

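The lists of other cell types were described in the same samples. In the pan-neural progenitor list, 1 of 8 genes was called, Msi1, an RNA-binding protein of neural stem cells, which was lower in the EpoR-null embryos (174 and 181 CPM against 240 to 264 CPM in the controls; log2 fold change -0.51, edgeR exact test FDR 0.00712). Of all genes tested, 4.77% were called by this test. The quasi-likelihood F-test of edgeR called 0 genes, so the call of Msi1 was lost there. In the intermediate mesoderm list 1 of 4 genes was tested, in the surface ectoderm and otic list 2 of 8, in the endoderm list 2 of 4, in the primitive erythroid list 5 of 5 and in the endothelial list 4 of 4, and 0 were called in each. The summed primitive erythroid level was 1679 and 957 CPM in EpoR-null 1 and 2 and 43.5 to 1078 CPM in the controls, so the groups overlapped. The summed endothelial level was 169 and 85.9 CPM in EpoR-null 1 and 2 and 9.68 to 209 CPM in the controls.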
